A study of Homo sapiens with 9 samples.

Results

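Kinesins are motor proteins that turn ATP hydrolysis into movement along microtubules or into the removal of tubulin from microtubule ends. A subset is made mainly in dividing cells, where its members push the spindle poles apart, bundle and shorten spindle microtubules, move chromosome arms and build the midzone at which a cell is cleaved. The genes of this subset are transcribed late in the cell cycle, so their mRNA is highest in cells that prepare for mitosis. The 10 genes described here are KIF11, KIF14, KIF15, KIF18A, KIF18B, KIF20A, KIF23, KIF2C, KIF4A and KIFC1. They were chosen by symbol as motors of mitosis, with earlier results of these data known, and matched to the probe sets of the array. Each stands for 1 of the 18417 genes that have a probe set of their own. Where a gene had more than 1 such probe set, the one with the highest mean over all arrays was taken.

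The measurements were made on Affymetrix human gene arrays with RNA of T47D cells, an established luminal breast cancer line that carries progesterone receptor. All 9 arrays came from T47D-pHUSH-Elf5-shRNA cells, a puromycin-selected derivative with a retroviral vector whose hairpin RNA against ELF5 is switched on by doxycycline. ELF5 is an ETS transcription factor of the mammary alveolar lineage. The labels do not say whether this derivative is 1 clone, and the RNA of each array was from cells pooled over 3 wells. There were 3 arrays in each of 3 groups: ethanol vehicle; 10 nM ORG2058, a synthetic progestin that the labels call progesterone, for 4 days; and, over the same 4 days, 10 nM ORG2058 together with doxycycline at 0.1 µg/ml. The vehicle cells thus carried the hairpin vector too, without its inducer, and no time in culture is labelled for them. No group among these arrays received doxycycline without ORG2058 or carried a different hairpin, so an effect of doxycycline itself cannot be told apart from one of ELF5. The design text calls the triplicates independent experiments.

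Each value is a log2 probe set signal, so a difference of 1 is a doubling, and levels of different genes are not compared because probes differ in brightness. Median signals of the 21214 probe sets with a gene symbol lay between 7.19 and 7.28 on the 9 arrays. The hairpin target ELF5 lay at 10.05 to 10.26 with vehicle, 11.23 to 11.31 with progestin and 10.35 to 10.46 with progestin plus doxycycline. The mean signal of 10 luminal epithelial markers lay between 11.30 and 11.60 on the arrays, that of 6 basal and myoepithelial markers between 6.41 and 6.73, and that of 13 fibroblast, endothelial and immune markers between 4.86 and 5.99. These ranges describe each list over the arrays, and the lists are not compared for level. The 4.86 was on progestin replicate 3, where LUM read -10.32. CDH5, of the last list, read 9.02 to 9.48 over the arrays. With progestin 3 luminal markers fell, PGR, which encodes the progesterone receptor (-2.28), GATA3 (-0.51) and ESR1 (-0.50), and 2 rose, among them KRT19 (0.46). Of the basal markers ACTA2 fell (-0.30) and KRT5 (0.61) and CNN1 (0.54) rose, and of the last list COL1A1 fell (-0.42) and PECAM1 (0.34) and CDH5 (0.30) rose. Among all probe sets 15.6% were called lower and 13.4% higher. When each of the 9 arrays was left out in turn, ACTA2 was not called in 6 fits and KRT5 in 5. PECAM1 and CDH5 were not called in 4 fits each, COL1A1 in 1 and the other luminal gene that rose in 8. The part of these markers in the kinesin results was not tested. An exact permutation over 6 arrays in groups of 3 can reach no p lower than 0.1, so calls rest on limma with Benjamini-Hochberg adjustment over all 21214 probe sets.

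The regulatory sequence of these genes is shown first. Its part in the changes described below was not tested. Many genes transcribed in late cell cycle carry, close to their start site, the letters TTTGAA or TTTAAA, which are the usual forms of the cell cycle genes homology region bound by the MuvB complex, and upstream of it CCAAT, the site of the factor NF-Y. The RefSeq promoter table of build GRCh38.p14 gives 250 bases before and 50 after each start, and it held all 10 genes. Both strands were searched. TTTGAA or TTTAAA occurred in 10 of the 10 windows, against 24% of the 35116 promoters in the table, and CCAAT in 8 of 10, against 34.6%. Both together were found in 8 of the 10 and in 9.27% of all promoters. The match nearest to the start site began between positions -55 (KIF23) and 5 (KIFC1) in the 10 genes, given here as a description. The ETS letters CCGGAAGT occurred in 3 of the 10 windows (KIF14, KIF23 and KIFC1) and in 4.14% of all promoters. Of 2 E2F-type words searched, TTTGGCGC occurred in 1 of the 10 windows (KIF15) and in 0.652% of all promoters. The other, TTTCCCGC, occurred in 0 of the 10 and in 1.63% of all promoters. These are matches of letters, and no binding was measured in these samples.

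The windows from 100 bases before to 30 after the start are printed for 6 genes, chosen to cover the largest and smallest changes and the different layouts. Capitals mark TTTGAA or TTTAAA and also CCAAT on either strand, and in KIF15 also the E2F-type letters TTTGGCGC, which read GCGCCAAA on the printed strand and end where the reverse form of TTTGAA begins. The GRCh38.p14 positions are chr3:44761694-44761823 for KIF15, chr5:138179012-138179141 for KIF20A, chr1:44739737-44739866 for KIF2C, chr6:33391723-33391852 for KIFC1 and chr15:69414249-69414378 for KIF23, all on the plus strand, and chr11:28108127-28108256 for KIF18A on the minus strand.
KIF15: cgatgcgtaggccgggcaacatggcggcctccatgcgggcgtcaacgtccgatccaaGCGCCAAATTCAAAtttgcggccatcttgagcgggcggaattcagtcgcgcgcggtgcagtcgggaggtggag
KIF20A: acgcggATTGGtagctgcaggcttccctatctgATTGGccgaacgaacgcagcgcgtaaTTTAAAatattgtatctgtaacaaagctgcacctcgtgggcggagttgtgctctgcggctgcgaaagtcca
KIF2C: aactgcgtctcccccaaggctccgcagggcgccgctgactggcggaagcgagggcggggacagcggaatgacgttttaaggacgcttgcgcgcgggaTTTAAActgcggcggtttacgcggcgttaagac
KIF18A: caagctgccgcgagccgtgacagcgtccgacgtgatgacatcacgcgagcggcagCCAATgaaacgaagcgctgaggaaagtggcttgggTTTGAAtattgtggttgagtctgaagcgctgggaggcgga
KIFC1: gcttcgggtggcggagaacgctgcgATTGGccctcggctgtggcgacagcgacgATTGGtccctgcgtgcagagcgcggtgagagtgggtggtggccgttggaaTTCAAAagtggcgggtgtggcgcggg
KIF23: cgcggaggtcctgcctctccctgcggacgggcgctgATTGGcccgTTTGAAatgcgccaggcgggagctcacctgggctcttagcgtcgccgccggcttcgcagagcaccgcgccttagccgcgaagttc

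KIF20A and KIFC1 had 2 CCAAT matches each upstream of the start-proximal element, KIF18A and KIF23 had 1, and KIF15 and KIF2C had none in the whole window. The members with TTTAAA as their start-proximal element were KIF20A and KIF2C, and the other 8 had TTTGAA. Among 8 further kinesins with a role in division, 3 held TTTGAA or TTTAAA anywhere in a window. Among the transport and other interphase kinesins, 21 of the 31 listed genes had an entry in the promoter table, and 2 of those 21 held one. The letters were not particular to kinesins. Of the lists described below, 15 of 23 partners and regulators of mitotic kinesins and 11 of 25 spindle microtubule-associated proteins held one. So did 7 of 18 regulators of cell cycle transcription, 2 of 13 tubulin genes and 0 of 19 dynein and dynactin genes. These counts cover only listed genes with an entry in the promoter table. A gene with several start sites counted where any of them held the letters. The 10 members had 10 start sites, and the shares over all promoters count each start site.

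Progestin against vehicle asks what 4 days of the hormone did to these mRNAs. All 10 mitotic kinesins fell, each to between 23.1% and 46.6% of its vehicle level on the linear scale (2.15-fold to 4.33-fold lower). Among all probe sets tested, 15.6% were called lower, 13.4% were called higher and 2.74% were called and at least 2-fold lower. The median log2 change of the 10 genes was -1.54, beside 0.02 over all probe sets tested, and the largest adjusted p among them was 0.000114. The arrays of the progestin and vehicle groups did not overlap for any of the 10, against 21.5% of probe sets that were lower without overlap. The RNA was from whole cultures, so fewer cells in mitosis and less mRNA per dividing cell cannot be told apart.

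**Figure D1:**
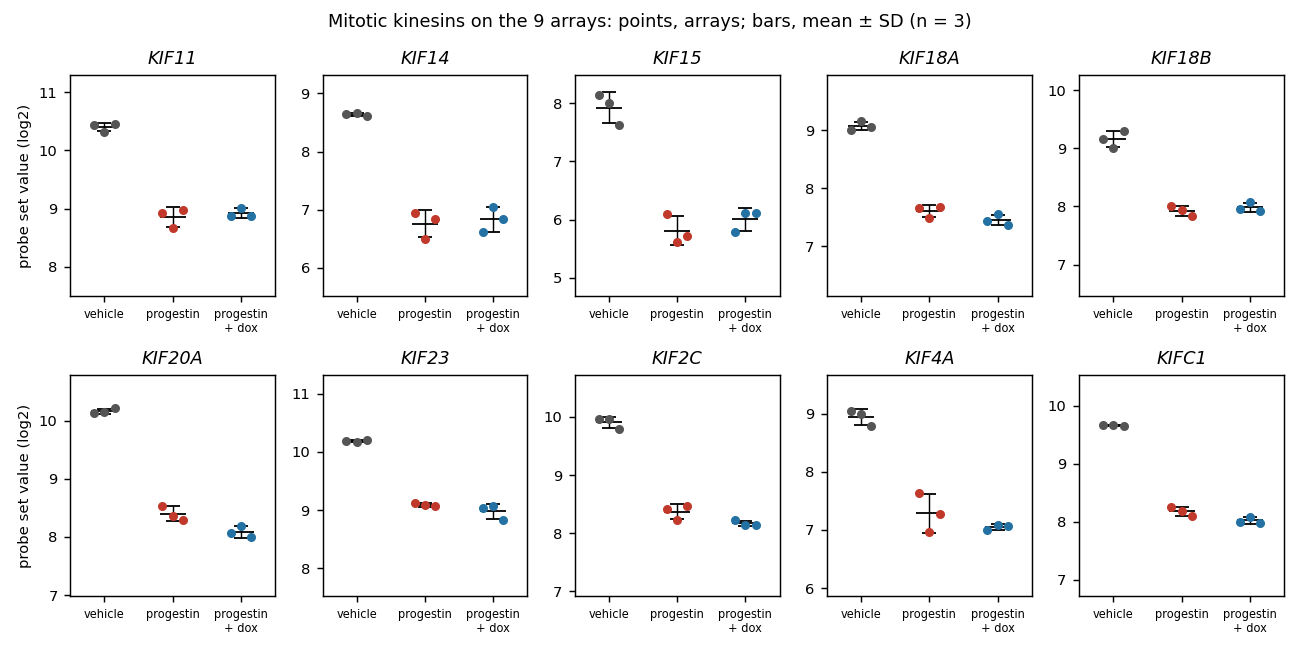
Probe set values (log2, vertical axis, each panel spanning the same range) of the 10 mitotic kinesins in the 3 groups; points are arrays, and bars give the mean and SD of 3 arrays. In every panel the vehicle arrays lie above all progestin-treated arrays, and the progestin and progestin plus doxycycline arrays lie close together, apart from KIF20A, KIF2C and KIFC1, where they do not overlap.

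Of the motors that build a bipolar spindle, KIF11 slides antiparallel microtubules to drive the poles apart. Its values were 10.44, 10.32 and 10.45 with vehicle, 8.93, 8.66 and 8.97 with progestin, and 8.87, 9.02 and 8.87 with progestin plus doxycycline. The vehicle arrays stood clear of the other 6, which overlapped each other, and progestin lowered KIF11 by a log2 change of -1.55 (SE 0.10, adjusted p = 1.37e-05). KIF15 can maintain a bipolar spindle when KIF11 is inhibited. It read 8.14, 8.01 and 7.63 with vehicle, 6.10, 5.62 and 5.72 with progestin, and 5.78, 6.12 and 6.12 with doxycycline added. KIF15 had the largest fall of the 10 genes, 4.33-fold (log2 change -2.11, SE 0.18, adjusted p = 5.28e-05), and only 0.537% of all probe sets had a lower change. It also had the largest SD in vehicle, 0.263, where replicate 3 lay below the other vehicle arrays. KIFC1, a minus-end directed motor that focuses poles and clusters extra centrosomes, had the tightest vehicle values of the 10. They were 9.66, 9.66 and 9.65, against 8.26, 8.18 and 8.11 with progestin and 8.001, 8.09 and 7.98 with progestin plus doxycycline. Its fall of 2.78-fold had the smallest adjusted p of the 10, 2.46e-06.

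Of the motors that act on microtubule ends, KIF18A dampens chromosome oscillations at the metaphase plate. It lay at 9.01, 9.16 and 9.05 with vehicle, 7.66, 7.49 and 7.67 with progestin, and 7.44, 7.55 and 7.37 with doxycycline added. Its relative KIF18B shortens astral microtubules and read 9.17, 9.01 and 9.29, then 8.002, 7.94 and 7.84, then 7.95, 8.08 and 7.92 in the same order of groups. KIF18B is among the least lowered members (2.35-fold), and its treated arrays lay in a single band. KIF2C, the depolymerase MCAK that corrects faulty kinetochore attachments, read 9.96, 9.97 and 9.80 with vehicle and 8.42, 8.23 and 8.47 with progestin, a 2.90-fold fall. With doxycycline added it read 8.22, 8.15 and 8.14, just below the lowest progestin array.

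Of the chromosome arm and midzone motors, KIF4A carries the bundling protein PRC1 to microtubule plus ends and moves with chromosome arms. Its vehicle values of 9.05, 8.99 and 8.79 fell to 7.63, 6.96 and 7.27 with progestin, and were 7.00, 7.09 and 7.06 with doxycycline added. The progestin arrays of KIF4A were the most scattered of any member (SD 0.336), while the SD of its doxycycline arrays was 0.0465. KIF14, which binds PRC1 and recruits citron kinase to the midbody, read 8.64, 8.66 and 8.61 with vehicle and 6.94, 6.50 and 6.84 with progestin. Its doxycycline values of 6.61, 7.05 and 6.84 overlapped those, and its fall of 3.67-fold was exceeded only by that of KIF15 among the 10.

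The kinesin-6 motors of the central spindle fell by different amounts. KIF20A, which brings the chromosomal passenger complex to the midzone, read 10.13, 10.14 and 10.21 with vehicle, 8.54, 8.36 and 8.30 with progestin, and 8.06, 8.19 and 7.99 with progestin plus doxycycline. All 3 doxycycline arrays of KIF20A lay below all 3 progestin arrays. KIF23, the motor subunit of centralspindlin, read 10.19, 10.17 and 10.21 with vehicle, 9.12, 9.09 and 9.06 with progestin, and 9.03, 9.07 and 8.84 with doxycycline added. KIF23 had the smallest fall of the 10, 2.15-fold (log2 change -1.10, SE 0.08), with a progestin SD of 0.0282.

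Ordered by log2 change from the largest fall, the members were KIF15 (-2.11), KIF14 (-1.88), KIF20A (-1.76), KIF4A (-1.65), KIF11 (-1.55), KIF2C (-1.54), KIFC1 (-1.48), KIF18A (-1.47), KIF18B (-1.23) and KIF23 (-1.10). The 95% confidence intervals of neighbours in this order overlapped throughout. Those of the ends did not: the interval was -2.52 to -1.71 for KIF15 and -1.28 to -0.93 for KIF23. With progestin plus doxycycline against vehicle, which uses the same vehicle arrays, all 10 genes were again called lower, against 12.5% of all probe sets, with log2 changes from -2.08 for KIF20A to -1.17 for KIF18B and a median of -1.69.

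**Figure D2:**
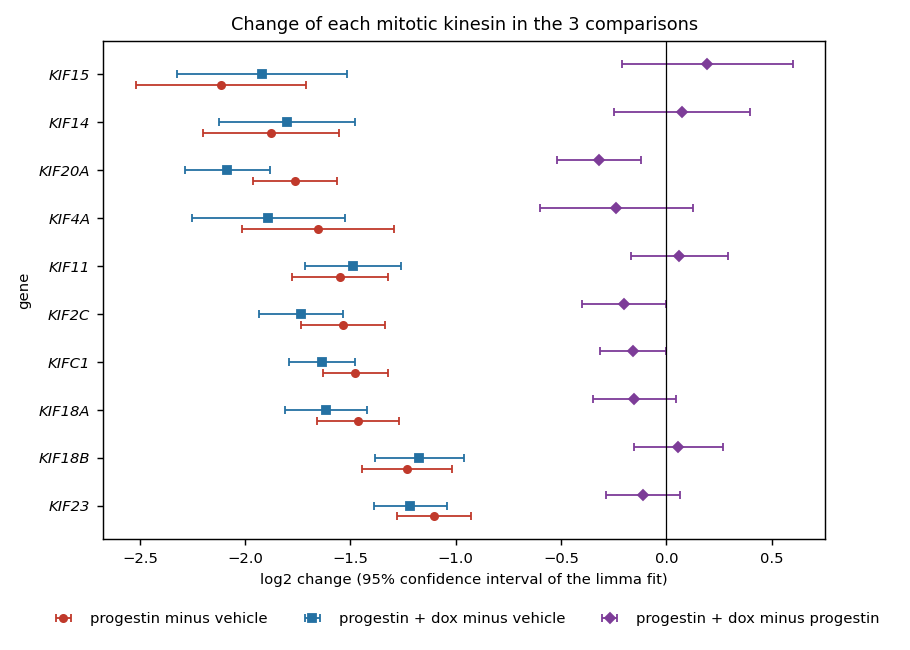
Log2 change (horizontal axis) of each mitotic kinesin in the 3 comparisons, with 95% confidence intervals of the limma fit; genes are ordered by their change in progestin against vehicle. Both comparisons with vehicle lie between -2.11 and -1.10 for all 10 genes, and the changes with doxycycline added to progestin lie between -0.32 and 0.20.

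Adding doxycycline to progestin asks whether the level reached with the hormone changes when the hairpin against ELF5 is induced. An effect of doxycycline itself cannot be told apart from one of ELF5 here. None of the 10 kinesins was called by limma, where 4 of all 21214 probe sets were (0.0189%; 0 to 2 with any 1 array left out). Of the members, 3 had an unadjusted p under 0.05, all lower (KIF20A, KIF2C and KIFC1). Among all probe sets 14% had such a p in either direction and 3.94% were lower with it. Of the 10 changes 6 were negative, against 43.9% of all probe sets. The same 3 were the members whose arrays did not overlap, while 6.43% of all probe sets were lower without overlap and 14.8% higher. The log2 changes ran from -0.32 to 0.20, with a median of -0.13 beside 0.03 over all probe sets. That median was -0.08 without progestin replicate 1 or without progestin plus doxycycline replicate 3, and between -0.17 and -0.12 without any other array.

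KIF20A changed by -0.32 (95% confidence interval -0.52 to -0.12, adjusted p = 0.182), a level 80.1% of that with progestin alone. It was called with a variance trend and robust estimation (adjusted p = 0.0443). In that setting 530 of all probe sets were called, 52 lower and 478 higher. KIF2C changed by -0.20 (interval -0.40 to -0.002, adjusted p = 0.355) and KIFC1 by -0.16 (interval -0.31 to -0.001, adjusted p = 0.355). KIF4A (-0.24), KIF18A (-0.15) and KIF23 (-0.11) also had negative changes, with overlapping arrays. The positive changes were those of KIF15 (0.20), KIF14 (0.08), KIF11 (0.06) and KIF18B (0.06), each with an interval that included 0. The widest intervals, those of KIF4A and KIF15, extended to -0.60 and 0.60, so changes of up to that size lie within them. Several of these values rested on 1 array. KIF4A changed by -0.06 without progestin replicate 1 and by -0.40 without replicate 2. KIF15 changed by 0.34 without progestin replicate 1, by 0.10 without replicate 2 and by 0.31 without progestin plus doxycycline replicate 1. KIF23 changed by -0.04 without progestin plus doxycycline replicate 3. The values of KIF11 and KIF14 turned negative without progestin replicate 2 (-0.04 and -0.05), KIF14 also without progestin plus doxycycline replicate 2 (-0.03), and that of KIF18B lay between 0.01 and 0.10 with 1 array left out.

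Replicates differed in a like way for many members. Among the progestin arrays, replicate 1 was the highest for 7 of the 10 genes and the lowest for 0, and replicate 2 was the lowest for 6 and the highest for 0. The mean over the 10 genes was 7.96, 7.70 and 7.83 on progestin replicates 1, 2 and 3. With doxycycline added, replicate 2 was the highest for 9 of the 10 genes, with a mean of 7.84 against 7.70 and 7.71 for the other arrays. The vehicle means were 9.44, 9.41 and 9.37. The difference between the group means of progestin and progestin plus doxycycline, 7.83 ± 0.128 against 7.75 ± 0.0782 (SD, n = 3), was thus smaller than the spread among the progestin arrays.

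Because members share arrays, the ratio of a pair on each array leaves out what moves both by the same log2 amount. What moves both by different amounts stays in the ratio. Pairs were set by subfamily or by step in division, and 8 changes of a ratio were tested by a two-sided exact permutation test, which cannot go below p = 0.1. KIF20A relative to KIF23 fell on the log2 scale from -0.03 ± 0.0294 with vehicle to -0.69 ± 0.0966 with progestin and to -0.90 ± 0.0647 with doxycycline added (SD, n = 3). The 3 groups did not overlap at either step (exact p = 0.1 for each, 0.133 adjusted over the 8 tests). KIF11 relative to KIF15 changed by 0.56 with progestin, again without overlap (exact p = 0.1), and overlapped between the treated groups (exact p = 0.5). The kinesin-8 pair KIF18A and KIF18B overlapped between vehicle and progestin (exact p = 0.2, change -0.24) and changed by -0.21 without overlap when doxycycline was added (exact p = 0.1). With the other probe set of KIF18B, the first change was -0.34 without overlap, and the second was 0.03 with overlap (exact p = 0.9). KIF4A relative to KIF14 changed by 0.22 with progestin and by -0.31 when doxycycline was added, without overlap in both steps (exact p = 0.1 each). With the probe set shared by KIF4A and KIF4B these changes were -0.02 and 0.19, with overlap in both. KIF20A, KIF23, KIF11 and KIF15 had no other probe set for such a check.

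**Figure D3:**
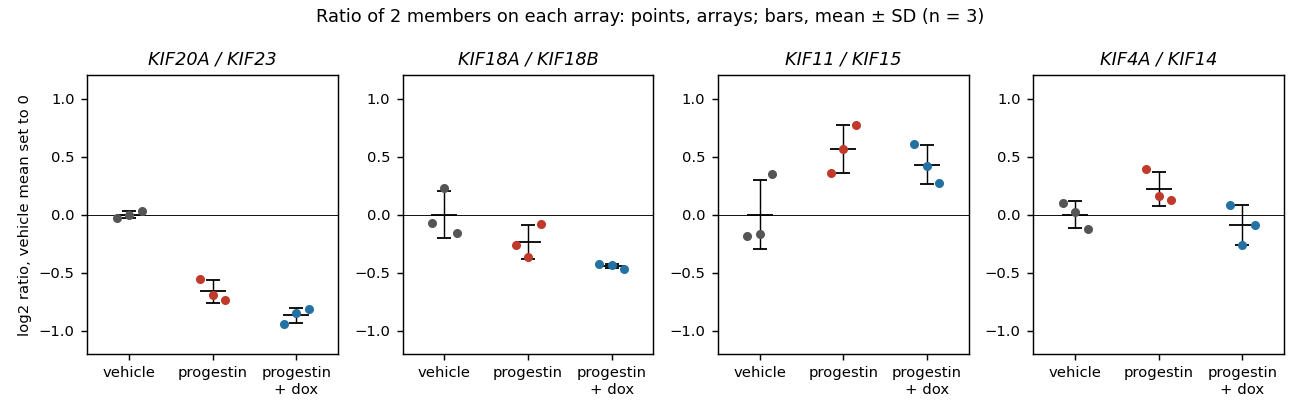
Log2 ratio of 2 mitotic kinesins on each array, with the vehicle mean set to 0 (vertical axis); points are arrays and bars give the mean and SD of 3 arrays. The ratio of KIF20A to KIF23 steps down from vehicle to progestin and again with doxycycline, and the ratio of KIF18A to KIF18B overlaps between vehicle and progestin.

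Genes with several probe sets gave a check within the array. The other probe set of KIF18B was dimmer and fell by 2.19-fold with progestin (adjusted p = 0.000302), close to the 2.35-fold of the first. With doxycycline added the first changed by 0.06 and the other by -0.18, neither called. The probe sets of KIFC1 differed by a nearly fixed 0.197 to 0.216 on all 9 arrays, so they are not independent readings. A further probe set annotated to both KIF4A and its near-identical copy KIF4B fell by 3.73-fold, against 3.15-fold for the one annotated to KIF4A alone. With doxycycline added these changed by 0.27 and -0.24, neither called, and signal from the copies cannot be told apart on the shared one.

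Of 7 further kinesins with a role in division that were measured, 5 fell with progestin and 0 rose. KIF20B, a kinesin-6 relative of KIF20A, changed by -1.47, the kinetochore motor CENPE by -1.31, the chromosome-binding KIF22 by -1.21 and KIF2A, a depolymerase relative of KIF2C, by -0.58. The median of this list was -1.04. Of 31 transport and other interphase kinesins, 4 fell and 5 rose (3 to 5 with any 1 array left out, the fewest without vehicle replicate 3), with a median of 0.09. The called shares of this list, 12.9% lower and 16.1% higher, were near the 15.6% and 13.4% of all probe sets. Called interphase kinesins included KIF13A, a vesicle transporter, which fell 2.60-fold from 10.14 ± 0.0514 to 8.76 ± 0.0485 (SD, n = 3). KIF21A (-0.42) and KIF12 (-0.51) also fell, and KIF13B rose (0.65). Of 20 subunit, dynactin and adaptor genes of dynein, the main motor toward microtubule minus ends, 2 rose (10%) and 1 fell (5%). Those shares were below the ones over all probe sets. NDE1, which works with dynein at kinetochores, changed by -0.46 and the dynactin subunit gene ACTR10 by 0.33. The other gene that rose, DYNC1I2 (0.27), was not called without vehicle replicate 1 or 3 or any 1 of the progestin arrays (adjusted p up to 0.0769). Of 12 tubulin genes 6 fell (5 with any 1 array left out) and 2 rose, with a median of -0.26. TUBB4B changed by -0.84, TUBA1C by -0.70, TUBB1 by -0.66 and TUBA1B by -0.63.

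**Figure D4:**
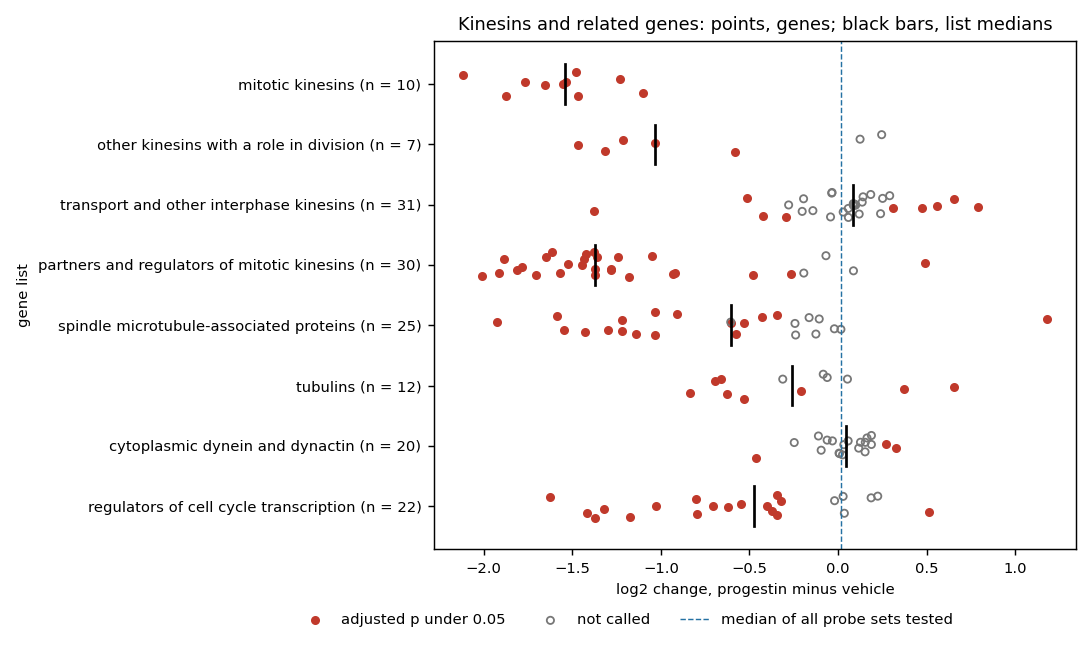
Log2 change in progestin against vehicle (horizontal axis) of the mitotic kinesins and 7 related gene lists; points are genes, filled where the adjusted p was under 0.05, black bars are list medians and the dashed line is the median of all probe sets. The mitotic kinesins (median -1.54) lie to the left, with their partners (-1.37) beside them, and interphase kinesins (0.09) and dynein genes (0.04) lie around the line.

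A further list held genes of proteins that load, anchor or phosphorylate the mitotic kinesins or act beside them. Of 30 such partners and regulators 26 fell with progestin and 1 rose, with a median log2 change of -1.37. HMMR, which anchors spindle microtubules, changed by -1.91, the checkpoint kinase BUB1 by -1.81 and the condensin subunits NCAPG and NCAPD2 by -1.78 and -1.61. Direct partners were among those lower: RACGAP1, which forms centralspindlin with KIF23 (-1.05), PRC1, the midzone cargo of KIF4A (-1.28), CIT, the kinase bound by KIF14 (-1.57), TPX2, which holds KIF11 and KIF15 on the spindle (-1.24), and AURKB, the kinase delivered by KIF20A (-1.42). These 5 were chosen for their link to a member, after their values were seen. Among 25 other spindle microtubule-associated proteins 16 fell, 1 rose and 8 were not called, with a median of -0.60. SPAG5 changed by -1.92, DLGAP5 by -1.59, ASPM by -1.55 and NUSAP1 by -1.14. Of all probe sets 15.6% were called lower and 13.4% higher.

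With doxycycline added, 0 of these 30 partners and 0 of the 25 spindle proteins were called by limma. The arrays of 11 of the 30 partners were lower without overlap and of 2 higher, beside 6.43% and 14.8% of all probe sets, and the median change of the 30 was -0.11. AURKB changed by -0.29 (unadjusted p = 0.00649), PRC1 by -0.21 (0.0209) and RACGAP1 by -0.19 (0.0294), while TPX2 changed by -0.04 and CIT by 0.04. The spindle proteins had a median change of 0.03 in that comparison, with the arrays of 4 lower and of 5 higher without overlap.

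Among 22 regulators of cell cycle transcription, 16 fell with progestin and 1 rose, with a median of -0.47. With any 1 array left out 12 to 16 fell, the fewest without vehicle replicate 1. FOXM1, the activator of G2 and M phase genes, fell from 10.92 ± 0.0369 to 9.50 ± 0.0814 (SD, n = 3; log2 change -1.42). MYBL2, which joins the MuvB complex to activate its targets, changed by -1.32, and the repressors E2F7 and E2F8 by -1.63 and -1.37. The gene that rose was CDKN1B, which encodes the inhibitor p27 (0.51). With doxycycline added FOXM1 changed by -0.17 and MYBL2 by -0.11, and 0 of the 22 were called by limma.

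The genes whose profile over the 9 arrays was most like the mean profile of the 10 members were sought among 18407 others, by the root mean square difference after each profile was centred on its own mean. The 10 nearest were E2F7 (0.0457), the APC/C inhibitor gene FBXO5 (0.0645), the BRCA1 partner gene BARD1 (0.0661), CIT (0.0725), the phosphatase inhibitor gene CIP2A (0.0748), NCAPD2 (0.0752), the nuclear envelope gene NEMP1 (0.0756), the lipoprotein receptor gene LRP8 (0.076), and the kinetochore genes CENPN (0.0764) and NDC80 (0.0767). The median distance of all genes was 0.801. Of the members themselves KIFC1 (0.0703) and KIF18A (0.0741) lay nearest to the mean profile and KIF15 (0.264) farthest. This likeness is a description over 9 arrays that share 3 treatments.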

How the data were processed

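RNA of 9 T47D cultures was measured on Affymetrix human gene arrays, 3 per group by the titles. The authors deposited 1 log2 value per probe set and array; the log2 scale was read from the values. The submitters' processing notes name PLIER, limma, Affymetrix Expression Console and Affymetrix Power Tools without role or version. For the normalization, the method is not given in the sources used. Of 33297 probe sets, 21214 carried at least 1 gene symbol in the platform annotation and were tested; genes were named from the 19460 with a single symbol. limma 3.58.1 in R 4.3.3 was fitted to the 9 arrays together (a mean for each group, moderated variances) with Benjamini-Hochberg adjustment, with calls at an adjusted p of 0.05, and the procedure was tested on simulated data. SE is that of the log2 change. The p-values reflect only the spread among these arrays, whose number limits precision.

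The members and lists were chosen with earlier results of these data known. All members were named; from each other list up to 4 genes with the smallest p past the threshold in progestin against vehicle, and the nearest 10 genes by profile. Replicate numbers did not pair the arrays: same-numbered deviations correlated between -0.146 and 0.196. Alternatives were quantile normalization, 16 added to the linear values, no dim probe sets, a variance trend with robust estimation, array weights, fitting 2 groups, the replicate block, all probe sets, the mean over a gene's probe sets, and leaving out each array; other probe sets in the ratios were added after seeing the data.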

Additional observations from a re-analysis of the deposited data

How the results depend on the processing

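In both comparisons with vehicle all 10 kinesins were called lower under each of 18 alternatives (9 of them leaving out 1 array), with a largest adjusted p of 0.00156 for progestin and 0.000942 with doxycycline added, and with medians of -1.60 to -1.47 and -1.71 to -1.66 when 1 array was left out. The count of all probe sets lower or higher with progestin was 6161, and 9502 with array weights. With doxycycline added to progestin, 0 of the 10 kinesins were called under 17 alternatives and 1, KIF20A, with a variance trend and robust estimation; the adjusted p values of the 10 genes lay between 0.0443 and 0.992, and 1 to 5 genes had an unadjusted p under 0.05. Changes of sign there, none of them called, were those of KIF11 with quantile normalization (-0.0024) and without progestin replicate 2 (-0.0356; 0.122 at most with 1 array left out), of KIF14 with array weights (-0.0645), without progestin replicate 2 (-0.0538, against 0.187 at most with 1 array left out) and without progestin plus doxycycline replicate 2 (-0.0314), and of KIF18B with the mean over its probe sets (-0.0599); the cause was not tested. The count over all probe sets in this comparison, 4, was 15 with 16 added to the linear values (11 higher, 4 lower), 158 when the dimmest 25% were left out, 8 with array weights, 530 with the variance trend and robust estimation, 12 over all probe sets of the table, 0 when only the 2 groups were fitted (2875 at an unadjusted p under 0.05) and 0 to 2 with 1 array left out. The replicate block gave 0 there (2592 unadjusted), 5378 with progestin and 5240 with progestin plus doxycycline, each against vehicle, and kept the kinesin counts at 10, 0 and 10; in 2 of the 9 matches of an array with the arrays of another group, the best correlation was with its own number. With the other probe set of KIF18B, an alternative chosen after seeing the data like the next, the ratio of KIF18A to KIF18B changed by 0.0263 with doxycycline added; with the probe set shared by KIF4A and KIF4B, the ratio of KIF4A to KIF14 changed by -0.0216 with progestin and 0.191 with doxycycline added.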
